A study of Bos taurus with 5 samples.

Results

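Integrins are the receptors by which animal cells hold on to the matrix around them. Each is made of an alpha and a beta subunit that pair before they reach the cell surface, where the outer parts bind matrix proteins and the tail of the beta subunit takes up talin and kindlin, which join it to actin. The beta subunit encoded by ITGB1 is shared by many alpha partners, while ITGB3, ITGB5 and ITGB6 pair with the alpha subunit of ITGAV and ITGB4 pairs with that of ITGA6. The 10 integrin subunit genes described here were ITGA2, ITGA3, ITGA5, ITGA6, ITGAV, ITGB1, ITGB3, ITGB4, ITGB5 and ITGB6, each found by its gene name, with 1 entry per name, among the 27607 genes of the deposited table.

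The table held RNA sequencing values of 5 cattle (Bos taurus) libraries, each carrying a tissue label of its own: brain, skin, lung, heart or limb. Per the labels' protocols, RNA came from cells lysed and pre-amplified on a Fluidigm C1 microfluidic chip. The sources used here give no breed, age, sex, treatment or number of animals or cells behind a library. With no replicates, no value below carries an error or a p-value, and each difference is one between these libraries only. Values are given as FPKM (fragments per kilobase of transcript, scaled to the mapped total), so that levels of different genes are per length. Each library summed to between 1072430 and 1172798 FPKM, read depth is unknown, and 5109 genes under the skin label to 6634 genes under the heart label were above 0. The markers of the labelled tissues were mostly listed at 0. At 1 FPKM or more stood 0 of 6 neuron genes under the brain label, 1 of 6 keratinocyte genes under the skin label, 0 of 6 alveolar genes under the lung label, 0 of 6 cardiomyocyte genes under the heart label and 1 of 6 skeletal muscle genes under the limb label. Each library is therefore called by its label, and no value is taken as that of a tissue. Whether a library holds RNA of 1 cell or of several is not known. If of several, fewer cells of a type and less RNA per cell cannot be told apart. Whether a gene listed at 0 had no RNA or was missed was not tested.

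ITGB1 was the only member above 0 in all 5 libraries and by far the most abundant. Its level was 330.64 FPKM under the brain label, 137.56 FPKM under the skin label, 141.11 FPKM under the lung label, 533.42 FPKM under the heart label and 139.11 FPKM under the limb label. It was thus highest under the heart label, next under the brain label, and at nearly the same level in the other 3. The heart-label level was 1.61 times the brain-label level and 3.88 times the skin-label level, the lowest. The skin-, limb- and lung-label levels lay within a ratio of 1.03, and their order changed when libraries were rescaled, the limb-label library then standing above the lung-label one. The other places in the order stayed the same under both rescalings. Within its own library ITGB1 was higher than between 77.8% (skin label) and 94.6% (heart label) of the values above 0. It made up 92.9% of the summed FPKM of the 10 members under the brain label, 95.6% under the lung label, 86.2% under the heart label, 73.5% under the limb label and 61.5% under the skin label.

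**Figure D1:**
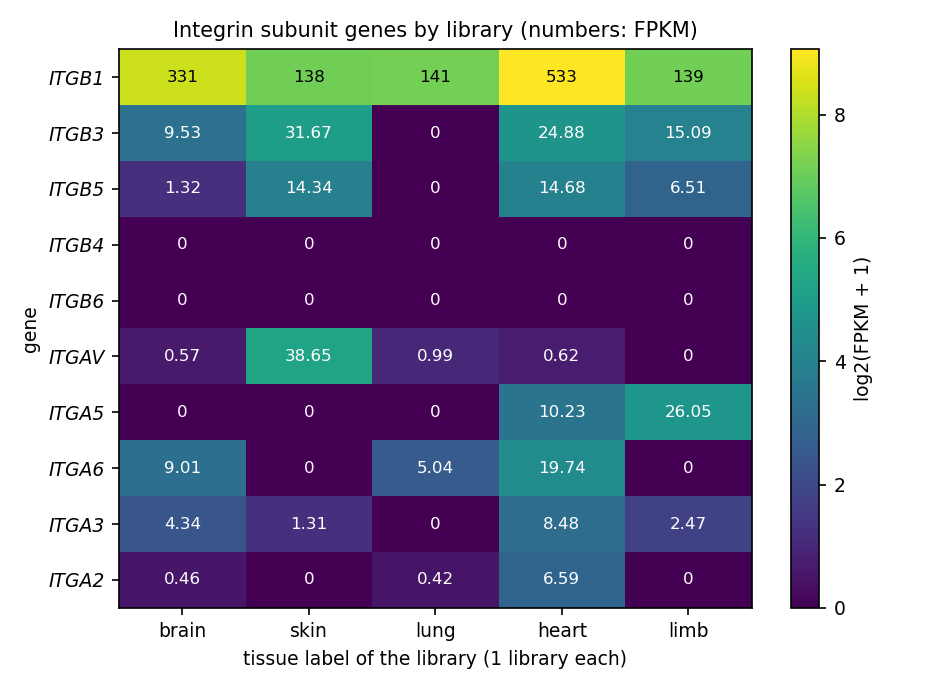
FPKM of the 10 integrin subunit genes (vertical axis) in the 5 libraries (horizontal axis, 1 library per tissue label), with colour on a log2(FPKM + 1) scale and the FPKM printed in each cell. ITGB1 stands above 137 FPKM in every column, ITGAV is bright in the skin column alone at 38.65 FPKM, and ITGB4 and ITGB6 are listed at 0 throughout.

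Without ITGB1, the summed level of the other members was 6.45 FPKM under the lung label, 25.23 FPKM under the brain label, 50.12 FPKM under the limb label, 85.22 FPKM under the heart label and 85.97 FPKM under the skin label. The lung-label library was lowest. It had 5991 genes above 0, beside 5109 in the skin-label library, and the cause of its low sum was not tested. ITGB1 exceeded the next highest member by 34.7 times under the brain label, 28.0 times under the lung label and 21.4 times under the heart label, but by 5.34 times under the limb label and 3.56 times under the skin label. That next member was ITGB3 under the brain and heart labels, ITGAV under the skin label, ITGA6 under the lung label and ITGA5 under the limb label.

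**Figure D2:**
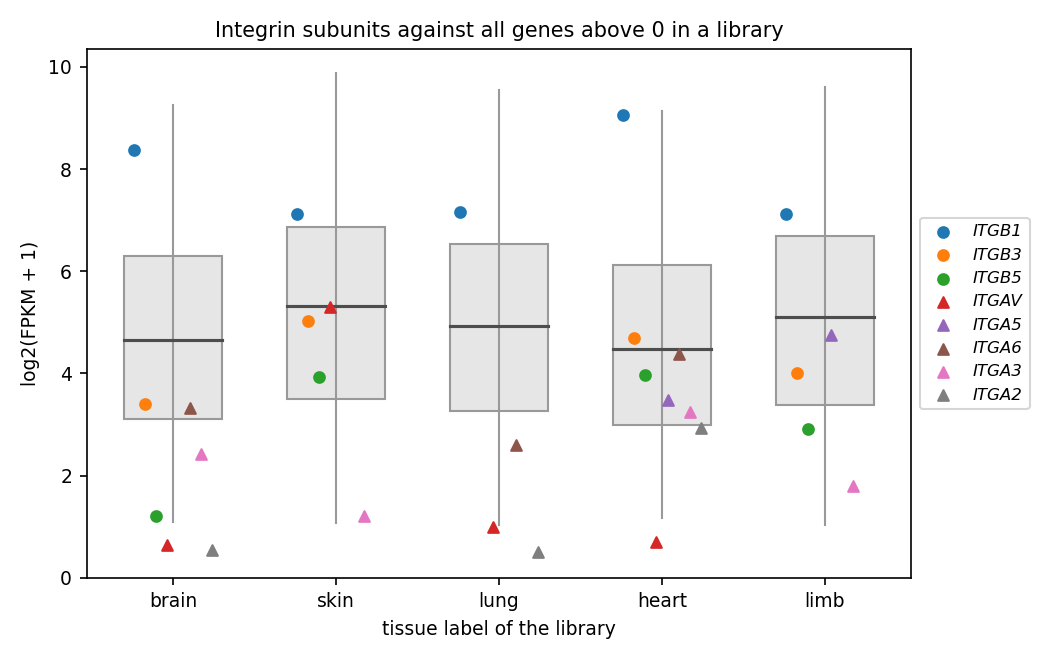
Level of each integrin subunit above 0, as log2(FPKM + 1), in the 5 libraries, with circles for beta and triangles for alpha subunits. Grey boxes span the middle 50% of all values above 0 in that library, the bar is their median and the lines reach from 5% to 95%. ITGB1 lies above the box in each library, and of the other members only ITGB3 under the heart label passes the median.

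Among the beta subunits that pair with ITGAV, ITGB3 encodes a receptor chain for vitronectin, fibronectin and osteopontin and is known from platelets and bone-resorbing cells. It was listed at 9.53 FPKM under the brain label, 31.67 FPKM under the skin label, 0 under the lung label, 24.88 FPKM under the heart label and 15.09 FPKM under the limb label. The skin-label level was 1.27 times the heart-label one and 3.32 times the brain-label one. Its platelet partner gene ITGA2B was listed at 0 in all 5 libraries, as were the other platelet genes in the table, GP9 and GP1BA. ITGB5, whose product binds vitronectin, stood at 1.32 FPKM under the brain label, 14.34 FPKM under the skin label, 0 under the lung label, 14.68 FPKM under the heart label and 6.51 FPKM under the limb label. Its skin- and heart-label levels were nearly equal, at a ratio of 1.02, and both were over 10 times the brain-label level, at 10.9 and 11.1 times. Both genes were thus highest in the skin- and heart-label libraries, lower under the limb label, lower again under the brain label, and listed at 0 under the lung label.

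ITGB4 and ITGB6 are known mainly as epithelial subunits. The first forms hemidesmosomes with ITGA6, the plaques that fix basal epithelial cells to laminin, and the second activates latent TGF-beta together with ITGAV. Both genes were listed at 0 in all 5 libraries. Of the epithelial markers, EPCAM, KRT8, KRT18, KRT19 and ESRP1 were also listed at 0 throughout, while CDH1 (E-cadherin) stood at 55.71 FPKM under the skin label, 14.07 FPKM under the lung label and 13.77 FPKM under the heart label. Of 6 hemidesmosome genes, COL17A1 and KRT14 were listed at 0 throughout. The cytolinker PLEC (plectin), which also serves other junctions, was at 3.05 to 6.55 FPKM, and DST (dystonin) reached 17.58 FPKM under the heart label. KRT5 was at 51.00 FPKM under the lung label and at 0 elsewhere, and the tetraspanin CD151, a partner of laminin-binding integrins, had 0 under the skin label and 32.88 to 158.76 FPKM in the other 4.

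The alpha subunits stood far below ITGB1, and each was listed at 0 in at least 1 library. The order of the libraries for each of them, and for ITGB3 and ITGB5, was the same under both rescalings. ITGAV stood at 38.65 FPKM under the skin label, against 0.57 FPKM under the brain label, 0.99 FPKM under the lung label, 0.62 FPKM under the heart label and 0 under the limb label. The skin-label level was 39.0 times the next highest, under the lung label, or 19.9 times after adding 1 to both. The 3 low values lay under at least 95% of the values above 0 in their libraries, since only 1.79%, 4.62% and 1.39% of those values were lower, so the ratios rest on very little signal. ITGA5, the partner of ITGB1 in the main fibronectin receptor, stood at 26.05 FPKM under the limb label and 10.23 FPKM under the heart label and was listed at 0 in the other 3. The limb-label level was 2.55 times the heart-label level.

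The subunits of laminin receptors had another order. ITGA6 stood at 9.01 FPKM under the brain label, 5.04 FPKM under the lung label and 19.74 FPKM under the heart label and was listed at 0 in the skin- and limb-label libraries. It was the only alpha subunit at 1 FPKM or more under the lung label. ITGA3, which also binds laminins with ITGB1, was at 4.34 FPKM under the brain label, 1.31 FPKM under the skin label, 0 under the lung label, 8.48 FPKM under the heart label and 2.47 FPKM under the limb label. The heart-label library was the highest for both, at 2.19 times the brain-label level for ITGA6 and 1.95 times for ITGA3. ITGA2, the alpha subunit of a collagen receptor of platelets and epithelia, was at 0.46 FPKM under the brain label, 0 under the skin label, 0.42 FPKM under the lung label, 6.59 FPKM under the heart label and 0 under the limb label. It was thus the lowest of the 8 members above 0 anywhere, with a mean of 1.49 FPKM, and passed 1 FPKM under the heart label alone.

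Of the 10 members, 5 stood at 1 FPKM or more under the brain label, 5 under the skin label and 2 under the lung label. Under the heart label 7 did, and under the limb label 5. Among the 19856 genes with a name, the shares at that level were 29.6%, 22.4%, 26.5%, 30.0% and 23.4% in the order brain, skin, lung, heart and limb label. The members were chosen with earlier results of these data known, so these shares do not measure how unusual the counts are. Of the 15 further integrin subunit genes in the table, 1 reached that level in each library. Which of the members stood at 1 FPKM or more differed between libraries. The heart-label library had the 7 genes ITGA2, ITGA3, ITGA5, ITGA6, ITGB1, ITGB3 and ITGB5, every member above 0 somewhere but ITGAV, which stood there at 0.62 FPKM. The skin-label library had ITGAV and ITGA3 as its only alpha subunits, the limb-label library ITGA3 and ITGA5, and the brain-label library ITGA3 and ITGA6. The table lists many genes of this level at 0 in some library. Of 5061 genes with a mean of 1 to 20 FPKM, 93.6% were listed at 0 in at least 1 library, as were all 7 members in that range. Of 1358 genes with a mean of 100 FPKM or more, 8.25% were, and ITGB1, the 1 member in that range, was not.

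Since an integrin needs both chains, the RNA of 9 subunit pairs known from textbooks was set side by side. Both genes of a pair were at 1 FPKM or more for 2 of the 9 pairs under the brain label, 4 under the skin label, 1 under the lung label, 4 under the heart label and 2 under the limb label. In the heart-label library the 4 were ITGA2, ITGA3, ITGA5 and ITGA6, each with ITGB1. In the skin-label library they were ITGAV with ITGB1, with ITGB3 and with ITGB5, and ITGA3 with ITGB1. The 9 pairs share subunits, so their counts are not separate observations. As ITGB1 passed 1 FPKM in every library, a pair with it follows the alpha gene alone. The pairs of ITGAV with ITGB3 and ITGB5 were met under the skin label alone, because ITGAV was below 1 FPKM in the heart-, brain- and lung-label libraries and at 0 under the limb label. ITGB3 at 24.88 FPKM and ITGB5 at 14.68 FPKM under the heart label, and 15.09 FPKM and 6.51 FPKM under the limb label, thus had no alpha partner listed at 1 FPKM. ITGB1 exceeded the summed level of the 5 alpha subunits in every library, by 23.0 times under the brain label, 21.9 times under the lung label, 11.7 times under the heart label, 4.88 times under the limb label and 3.44 times under the skin label. These are RNA levels, and no protein was measured.

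**Figure D3:**
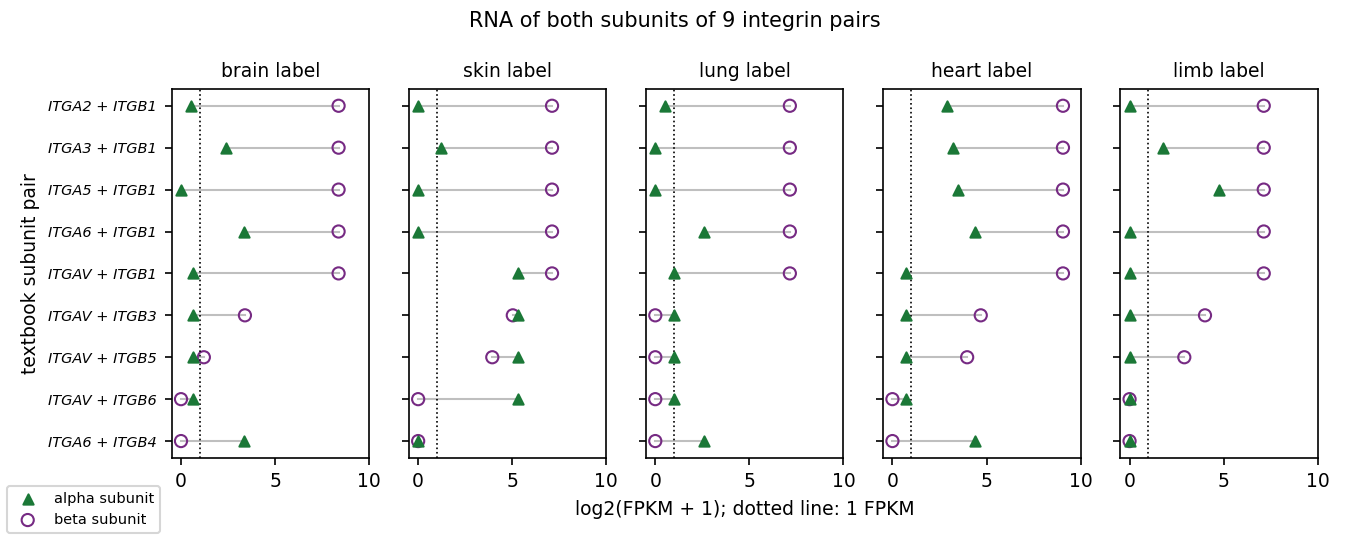
Level as log2(FPKM + 1) of the alpha (triangle) and beta (open circle) gene of 9 textbook integrin pairs (vertical axis) in each library (panels), joined by a line, with 1 FPKM dotted. ITGB1 lies to the right of its alpha partners in every panel, and ITGAV lies past 1 FPKM beside ITGB3 and ITGB5 in the skin panel only.

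Libraries were next set against the other 4 by a rule of size. Enriched genes had at least 10 FPKM and a ratio of 4 or more to the highest of the others after adding 1 to both, and a gene was depleted when the others all reached 10 FPKM and their lowest was 4 or more times the gene's own level on that scale. Of the 8 members above 0 somewhere, ITGAV under the skin label was the 1 enriched member, where 3.44% of the 9877 genes above 0 anywhere were enriched. In the brain-, lung-, heart- and limb-label libraries 0 members were enriched, beside 3.46%, 4.48%, 3.73% and 3.18% of genes. No member was depleted, beside 0.537%, 2.75%, 1.91%, 0.85% and 2.41% of genes in the brain-, skin-, lung-, heart- and limb-label libraries. With shares this low, 0 or 1 of 8 is close to the background. Enrichment in at least 1 of the 5 libraries was met by 18.3% of the 9877 genes. Among genes with a mean of 1 to 20 FPKM, as ITGAV had, the share was 31.8%. ITGB3 under the lung label came near to being depleted. It was listed at 0 there with 9.53 FPKM as the lowest of the other 4, just under the minimum. ITGA2 under the heart label passed the ratio, at 5.2 after adding 1, but not the minimum.

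Over the 10 pairs of libraries, 19 of 80 member-by-pair values (23.8%) reached 10 FPKM in the higher library and a ratio of 4 on that scale, beside 27.3% over all genes. The 19 belonged to ITGA5 (6 pairs), ITGAV and ITGB5 (4 pairs each), ITGB3 (3 pairs) and ITGA6 (2 pairs). ITGB1, ITGA2 and ITGA3 passed in 0 of 10 pairs. By direction, the heart-label library was the higher in 8 of its 32 values, beside 14.6% of genes, and the skin-label library in 7 of 32, beside 11.9%. The limb-label library was the higher in 4, beside 11.8%, and the brain- and lung-label libraries in 0, each beside 15.0%. The lung-label library was the lower in 8 of 32, beside 13.6% of genes, and the brain-label library in 5, beside 10.7%. The skin-, limb- and heart-label libraries were the lower in 3, 2 and 1, beside 16.6%, 15.8% and 11.6%. These counts share libraries and few genes, so they are not separate observations. The median log2 ratio of the highest to the lowest library, after adding 1, was 4.17 over the 8 members and 3.79 over the 9877 genes. Over the 5061 genes with a mean of 1 to 20 FPKM, where 7 of the members lay, it was 4.22. For the 7 members with a library at 0 this ratio depends on the 1 that was added, so it is not given gene by gene.

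**Figure D4:**
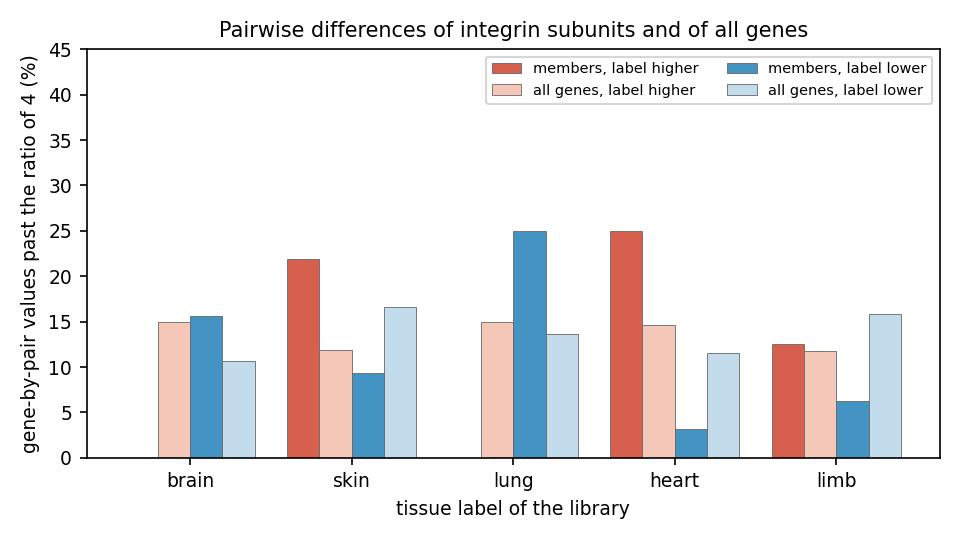
Share (%) of gene-by-pair values past the ratio of 4 in which the named library is the higher (red) or the lower (blue), for the 8 members above 0 anywhere (dark, of 32 values a library) and all 9877 genes (pale). Members are higher in the heart- and skin-label libraries in 25% and 21.9% of values and in 0 in the brain- and lung-label libraries.

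Few other subunits of the family were above 0. Of 15 further integrin subunit genes in the table, 13 were listed at 0 in all 5 libraries, among them the leukocyte subunit ITGB2. PTPRC (CD45), the general leukocyte gene, was listed at 0 too. ITGAE, known as the alpha subunit of a mucosal lymphocyte integrin, was at 1.71 FPKM under the brain label, 43.73 FPKM under the skin label, 17.62 FPKM under the lung label, 9.47 FPKM under the heart label and 17.42 FPKM under the limb label. It was thus above 0 in every library, while its only known beta partner, ITGB7, was listed at 0. ITGB8, another partner of ITGAV, stood at 0.79 FPKM under the heart label and 0.48 FPKM under the limb label.

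The matrix proteins that these receptors bind were compared next, as 26 genes of which 18 were above 0 somewhere. At 1 FPKM or more stood 15 under the brain label, 11 under the skin label, 12 under the lung label, 16 under the heart label and 15 under the limb label. FN1 (fibronectin), the ligand of the ITGA5-ITGB1 receptor, was at 106.46 FPKM under the brain label, 34.14 FPKM under the skin label, 20.94 FPKM under the lung label, 261.59 FPKM under the heart label and 113.36 FPKM under the limb label. It was highest under the heart label, as ITGB1 was, and it was well above 0 also under the brain label, where ITGA5 was listed at 0. SPP1 (osteopontin), a ligand of the ITGAV-ITGB3 receptor, was listed at 0 under the skin label, where both subunits stood highest, and at 39.72 to 1752.63 FPKM in the other 4. THBS1 (thrombospondin) and MFGE8, other ligands of ITGAV receptors, were also at 0 there. Both were depleted by the rule above, as SPP1 was, beside the 2.75% of genes given before. Other ligand genes stood above 0 under the skin label, among them FN1 at 34.14 FPKM. FBN1 (fibrillin-1) and VTN (vitronectin) were named after their values were seen. FBN1 was highest under the skin label, at 32.38 FPKM, and VTN was listed at 0 in all 5 libraries. Over the 5 libraries, 4 of the 18 ligand genes were depleted in a library, beside 8.46% of all genes, and 1 was enriched, beside 18.3%. CCN2 (connective tissue growth factor) ranged from 0.63 FPKM under the lung label to 1009.73 FPKM under the limb label, and COL1A2 (type I collagen) from 6.0 FPKM under the lung label to 523.19 FPKM under the heart label. TNC (tenascin) was listed at 0 under the lung label, where it was depleted, and at 17.60 to 87.98 FPKM in the others.

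For the laminin receptors, LAMA5 was enriched under the lung label at 24.64 FPKM, against 0.22 FPKM under the brain label and 0 in the other 3. Among laminin genes singled out after their values were seen, LAMC1 was listed at 3.96 to 65.75 FPKM over the 5 libraries and LAMB1 at 2.97 to 13.52 FPKM. LAMB1 was highest under the heart label, as ITGA6 and ITGA3 were, while LAMC1 was highest under the brain label, at 65.75 FPKM, then under the skin label, at 51.65 FPKM, and stood at 47.64 FPKM under the heart label. Of 6 genes of latent TGF-beta, TGFB1 and TGFB3 were listed at 0 throughout. TGFB2 ranged from 13.48 FPKM to 77.13 FPKM in 4 libraries and was at 0 under the lung label, where it was depleted. It was the 1 depleted gene of the 4 in this list above 0 somewhere, beside 8.46% of all genes. LTBP1 reached 13.86 FPKM, LTBP4 9.73 FPKM and LTBP3 9.10 FPKM.

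Inside the cell, 20 of 26 genes of talin, kindlin and the adaptors were above 0 somewhere and 14 in all 5 libraries. TLN1 (talin), named after its values were seen, was at 50.60 FPKM under the brain label, 7.85 FPKM under the skin label, 10.04 FPKM under the lung label, 34.67 FPKM under the heart label and 49.75 FPKM under the limb label. FERMT2 (kindlin-2) was at 218.77, 60.19, 41.26, 182.17 and 106.07 FPKM in the same order. Both were lowest in the skin- and lung-label libraries, and both stood higher under the limb label, where ITGB1 did not. The list had no common order: of the 20 genes, 6 were highest under the brain label, 5 under the heart label, 4 under the limb label, 3 under the lung label and 2 under the skin label. VASP, singled out after its values were seen, was highest under the skin label, at 89.70 FPKM. ILK (integrin-linked kinase), the core of the complex with PINCH and parvin, ranged from 133.47 FPKM under the lung label to 431.31 FPKM under the heart label. RSU1, which binds PINCH, ranged from 26.70 FPKM under the skin label to 693.33 FPKM under the limb label, and the focal adhesion protein ZYX (zyxin) from 24.20 to 143.17 FPKM. Of the 20 genes, 3 were enriched in a library, which is no more than the 18.3% over all genes: LIMS1 (PINCH-1) at 16.86 FPKM under the brain label, TNS1 (tensin) at 26.91 FPKM under the heart label and TNS3 at 20 FPKM under the skin label. PTK2 (focal adhesion kinase) was at 3.55 to 25.25 FPKM in 4 libraries and at 0 under the skin label, YES1 was at 4.83 FPKM under the heart label alone, and SRC, FYN and PTK2B were listed at 0 throughout.

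ITGB1BP1 (ICAP-1) binds the tail of the ITGB1 product and holds it inactive. Its level was 103.50 FPKM under the brain label, 27.14 FPKM under the skin label, 82.19 FPKM under the lung label, 142.08 FPKM under the heart label and 45.87 FPKM under the limb label. The heart-label library was highest and the brain-label library next, the same first places as for ITGB1. Of the other inhibitors FLNA (filamin A) was at 15.19 to 38.71 FPKM, SHARPIN was enriched under the brain label at 19.58 FPKM with 0 in the other 4, and DOK1 and DOK2 were listed at 0. SHARPIN was the 1 enriched gene of the 4 inhibitors above 0 somewhere, beside 18.3% of all genes. Of the genes of integrin traffic, RAB11A, which returns receptors to the surface, was at 167.20 to 507.07 FPKM and was above 0 in every library. ARF6 and SNX17 were listed at 0 under both the skin and the limb label, and RAB5A there and under the brain label. RAB25 and SNX31 were at 0 throughout. Among membrane partners, the tetraspanin CD63 ranged from 2772 to 5785 FPKM, BSG (basigin) from 558.80 to 1031 FPKM, CD81 from 125.20 to 851.26 FPKM and CAV1 (caveolin-1) from 126.03 to 369.78 FPKM. PLAUR, the urokinase receptor that associates with integrins, was enriched under the heart label at 301.23 FPKM, with 68.83 FPKM under the limb label and 0 in the other 3. CD151 was depleted under the skin label, and CD82 was listed at 0 throughout. Of the 11 membrane partners above 0 somewhere, 1 was enriched in a library and 1 depleted, beside 18.3% and 8.46% of all genes.

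**Figure D5:**
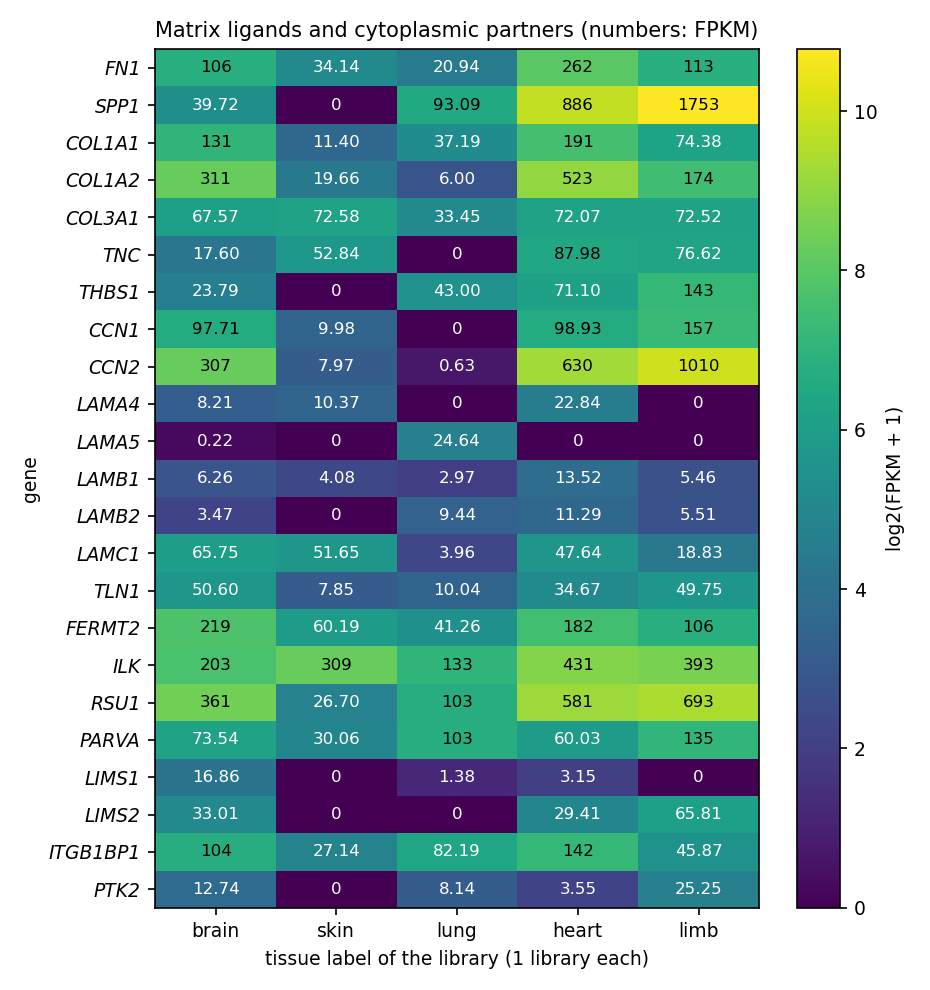
FPKM of 23 matrix ligands and cytoplasmic partners of integrins (vertical axis) in the 5 libraries (horizontal axis), with colour on a log2(FPKM + 1) scale and the FPKM printed in each cell, genes being chosen for display from the lists. FN1, ITGB1BP1 and COL1A2 are highest in the heart column, SPP1 is listed at 0 in the skin column, and FERMT2 and ILK are above 41 FPKM in every column.

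Genes with a profile like that of ITGB1 were sought among the 4670 other named genes whose mean reached 10 FPKM, by the largest difference in log2(FPKM + 1) over the 5 libraries after centring each gene on its own mean. Among the 5 closest were PCBD2 with a largest difference of 0.20, TP53RK with 0.25, NBDY with 0.49 and SH3GLB1 with 0.52. PCBD2 stood at 175.95, 89.48, 69.26, 328.52 and 77.76 FPKM in the brain-, skin-, lung-, heart- and limb-label libraries. None of the 5 is in the lists of integrin ligands and partners, and with 5 libraries and so many genes searched such likeness is a description only.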

How the data were processed

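RNA of 5 cattle libraries, 1 per tissue label, was used from 1 deposited table of 27607 genes. Per the submitters' processing notes, bcl2fastq, STAR and RSEM were used with the ARS-UCD1.2 build. The sources used here give no versions, annotation release or filters. The values deposited by the authors were taken as FPKM by elimination: 98.7% to 99.1% of those above 0 were not whole, and each library summed to over 1000000. How reads lie along transcripts is not given, which limits comparison of genes of different length. Reads shared with near-identical gene copies could move between entries. Depth is unknown, so no interval or floor is given.

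From there, values were used as deposited with Python 3.11.15, numpy 2.4.6 and pandas 2.3.3. Detection was set at 1 FPKM. Calls used a minimum of 10 FPKM, a pseudocount of 1 and a ratio of 4, which understates ratios of low genes. Background shares are over the 9877 genes above 0 in at least 1 library. The rules were tested on simulated data without noise, and without zeros among the changed genes, where the calls follow from the rules. This checks the code and not how the rules behave with values like these. Names given are all 10 members, and of each list the 4 highest means, the called genes and, where 5 or fewer, those at 0 in all libraries. Members and lists were chosen with earlier results of these data known. RefSeq's gene table is of a later assembly, so no coordinates are given. Of the genes this rule and the search for profiles like that of ITGB1 give, 2 are not reported here.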

Additional observations from a re-analysis of the deposited data

How the results depend on the processing

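ITGAV was enriched under the skin label with all 14 alternatives, but many of them could only keep a call already made. These were no minimum, a pseudocount of 0.1, a ratio of 2, the mean as reference and any label left out of the reference. ITGAV could have lost the call only with a pseudocount of 5, a minimum of 20 FPKM, a ratio of 8 or either rescaling, and did not. With pseudocounts of 0.1 and 5, a minimum of 20 FPKM, a ratio of 8, either rescaling, or the brain, skin or lung label left out of the reference, it was the 1 enriched member. There were 2 enriched members with no minimum (ITGA2 under the heart label added), 2 without the heart label in the reference (ITGA5 under the limb label added) and 2 without the limb label (ITGA5 under the heart label added). There were 3 with a ratio of 2 and 3 with the mean of the other 4 as reference (ITGA5 under the limb label and ITGA6 under the heart label added). Depleted calls went from 0 to 1 (ITGB3 under the lung label) with no minimum or without the brain label. Against the mean of the other 4 there were 4 calls, but not on 4 members. They were ITGB3 under the lung label and ITGAV under the brain, heart and limb labels. For ITGAV that mean held the skin-label level of 38.65 FPKM. The 19 calls over pairs became 12 with a pseudocount of 5, 32 with no minimum, 9 with a minimum of 20 FPKM and 33 with a ratio of 2. At 5 FPKM or more the members detected numbered 3 under the brain label. At 10 FPKM or more they numbered 1 under the brain label, 1 under the lung label and 3 under the limb label, and above 0 they numbered 4 under the lung label. Subunit pairs with both genes above 0 numbered 6, 3 and 7 in the brain-, lung- and heart-label libraries. At 5 FPKM they numbered 1 under the brain label and 1 under the limb label, and at 10 FPKM 0 under the brain label, 0 under the lung label, 2 under the heart label and 1 under the limb label. The cause of these moves was not tested beyond the construction of each setting. The log2 ratio of the highest to the lowest library for ITGB1 was 1.95 and stayed between 1.92 and 2.14. The median of this log2 ratio over the 8 members, 7 of them with a library at 0, went from 4.17 to 7.42 with a pseudocount of 0.1 and to 2.14 with one of 5, and over all genes from 3.79 to 6.69 and 2.16. Scaling by the median ratio divided each library by a factor of -0.06 (heart label) to 0.14 (lung label) on the log2 scale. Heart-label levels thus rose and those of the other libraries fell. No paired analysis was possible because each label has 1 library and no test was made.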
